A study of Homo sapiens with 8 samples.

Results

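The cells described here are DLD1, an established human colon adenocarcinoma line that carries a truncating mutation of the tumour suppressor APC, in the state that served the study as its baseline. They were represented by 2 of the 8 arrays of the series, the siCONT mock replicates 1 and 2. Both were chosen by their labels alone, and no array with UHRF1 siRNA or with trichostatin A (TSA) was used. These cells were not untouched. They had received a control siRNA with a lipid transfection reagent for 48 h, and then ethanol, the solvent of TSA, for a further 24 h. In the other 6 arrays the control siRNA was replaced by either of the siRNAs siUHRF1-1 and siUHRF1-2, the ethanol by 300 nM TSA, or both. The labels number the siCONT arrays as replicates and do not say whether they came from separate cultures, and 1 cell line in 1 culture condition is all that they can stand for.

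The colon epithelium is renewed from stem cells at the base of its crypts. Wnt ligands hold these cells in division by keeping β-catenin from the destruction complex of APC, AXIN and GSK3, so that β-catenin can reach TCF factors on the DNA. As cells leave the crypt base they stop dividing and become absorptive colonocytes, mucus-making goblet cells, hormone-making enteroendocrine cells or tuft cells. In most colorectal cancers APC is lost and β-catenin stays active without a ligand, and in tumours with the CpG island methylator phenotype (CIMP), to which the study assigns DLD1, many CpG-rich promoters are methylated and their genes silent.

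The baseline was read as the processed signal, the intensity of a probe after the scanner software had subtracted the background. A probe counted as detected where this software had marked it well above background on both arrays. Of 50590 probes, 21148 (41.8%) were detected, 1571 were well above background on 1 array only, and 27871 were on neither. The lowest signal marked well above background was 13.3 on replicate 1 and 13.4 on replicate 2, and the brightest probe of each array reached 190870 and 176359. No spot was saturated. On replicate 1, 36.5% of the probes had a signal that did not differ from background and lay at a floor with a median of 3.196, and on replicate 2 this held for 37.2% with a median of 3.15. Signals at this floor have no order, so genes there are described as not well above background and are not ranked. The brightest 505 probes held 53.3% and 52.7% of the summed signal of replicates 1 and 2.

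Detected probes differed between both arrays by a median of 0.07 on the log2 scale, with an SD of 0.18, and 27 of them differed by over 2-fold. Over 602 probes with 5 or more usable spots on each array, the difference between the arrays was 1.16 times that which the noise of the repeated spots alone would give. Both arrays were therefore treated as 1 sample measured again, both values are given for each gene, and no error between cultures can be stated. Different probes of 1 gene differed far more. Among 3650 genes with at least 2 detected probes, the brightest and the dimmest detected probe were a median of 2.28 log2 units apart. A signal depends on the probe's sequence as well as on its RNA, so the ranks below order signals and do not order the amounts of RNA of different genes.

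Probes were placed in 4 classes by detection and rank. Abundant probes were the top 5%, moderate probes lay from the 75th up to the 95th percentile, low probes were detected under the 75th percentile, and the rest were not well above background. A gene took its brightest probe. Of 21363 named genes, 12959 (60.7%) were detected, 1941 (9.09%) were abundant and 8404 (39.3%) were not well above background, and the counts for each group of genes are to be read against these shares.

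**Figure D1:**
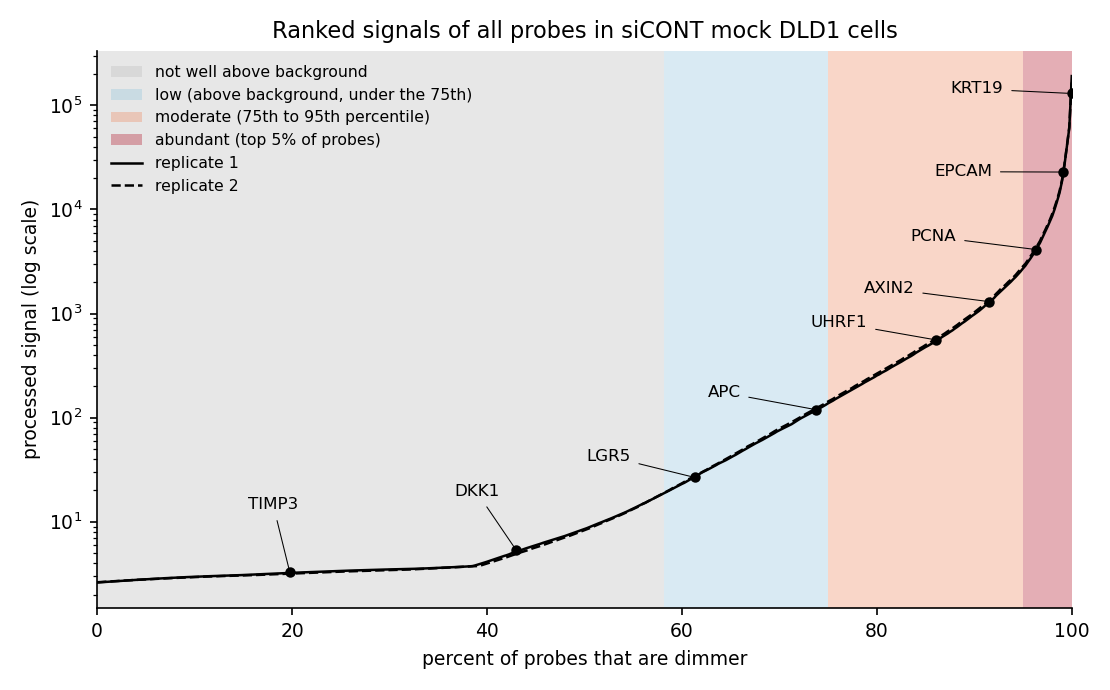
Processed signal on a log axis against the percent of probes that were dimmer, for both siCONT mock arrays, with the 4 classes shaded. The border between low and undetected is drawn at the share of undetected probes, 58.2%, and these classes overlap in rank near it. The curves of replicates 1 and 2 lie on each other; KRT19 and EPCAM sit in the abundant range, AXIN2 and UHRF1 in the moderate range, and DKK1 and TIMP3 at or near the floor.

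Since the study is about genes silenced at methylated CpG-rich promoters, the promoters that mark the contrast within these cells are shown first. They are RefSeq sequences of the reference genome GRCh38.p14, from 250 bases before to 50 bases after the start site of the gene, written 5′ to 3′ on the strand of the gene, and the arrays say nothing of their methylation. TIMP3, an inhibitor of matrix proteases at chr22:32801455-32801754 (plus strand), UCHL1, a ubiquitin hydrolase at chr4:41256678-41256977 (plus strand), and SFRP2, a secreted Wnt antagonist at chr4:153789034-153789333 (minus strand), were not well above background. MGMT, a DNA repair enzyme at chr10:129466991-129467290 (plus strand), NEURL1, a ubiquitin ligase at chr10:103493455-103493754 (plus strand), and the colon lectin gene LGALS4 at chr19:38812896-38813195 (minus strand) were of moderate signal. Capitals mark each CG dinucleotide, and the first 5 hold many while the last holds few.
TIMP3: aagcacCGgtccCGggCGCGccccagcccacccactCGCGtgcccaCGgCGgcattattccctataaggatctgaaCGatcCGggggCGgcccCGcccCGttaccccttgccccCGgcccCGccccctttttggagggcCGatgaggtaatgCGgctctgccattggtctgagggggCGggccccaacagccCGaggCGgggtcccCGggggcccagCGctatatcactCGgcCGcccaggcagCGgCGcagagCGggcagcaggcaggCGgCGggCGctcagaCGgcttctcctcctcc
UCHL1: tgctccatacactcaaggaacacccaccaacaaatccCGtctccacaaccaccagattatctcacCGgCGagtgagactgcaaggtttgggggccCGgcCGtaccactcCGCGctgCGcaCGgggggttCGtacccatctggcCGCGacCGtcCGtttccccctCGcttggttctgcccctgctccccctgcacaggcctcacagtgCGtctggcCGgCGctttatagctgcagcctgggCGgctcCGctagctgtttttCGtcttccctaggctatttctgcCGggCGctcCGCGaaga
SFRP2: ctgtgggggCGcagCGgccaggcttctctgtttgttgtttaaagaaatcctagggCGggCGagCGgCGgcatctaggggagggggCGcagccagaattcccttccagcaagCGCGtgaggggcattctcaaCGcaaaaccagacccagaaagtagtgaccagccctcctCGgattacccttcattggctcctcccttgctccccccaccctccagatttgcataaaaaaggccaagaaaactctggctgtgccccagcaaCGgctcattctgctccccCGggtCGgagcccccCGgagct
MGMT: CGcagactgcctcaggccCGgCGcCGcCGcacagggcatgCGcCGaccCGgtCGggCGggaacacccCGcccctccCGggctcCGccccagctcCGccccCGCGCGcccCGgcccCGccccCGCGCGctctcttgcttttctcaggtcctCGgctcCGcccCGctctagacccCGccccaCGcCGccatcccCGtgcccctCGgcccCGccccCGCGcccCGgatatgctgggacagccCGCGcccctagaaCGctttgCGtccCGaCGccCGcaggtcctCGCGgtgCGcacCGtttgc
NEURL1: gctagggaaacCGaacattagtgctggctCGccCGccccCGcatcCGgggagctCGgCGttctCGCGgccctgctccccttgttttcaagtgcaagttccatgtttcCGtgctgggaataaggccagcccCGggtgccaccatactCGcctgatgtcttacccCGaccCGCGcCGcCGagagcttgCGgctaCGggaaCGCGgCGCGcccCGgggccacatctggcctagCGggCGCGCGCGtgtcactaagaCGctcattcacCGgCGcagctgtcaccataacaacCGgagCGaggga
LGALS4: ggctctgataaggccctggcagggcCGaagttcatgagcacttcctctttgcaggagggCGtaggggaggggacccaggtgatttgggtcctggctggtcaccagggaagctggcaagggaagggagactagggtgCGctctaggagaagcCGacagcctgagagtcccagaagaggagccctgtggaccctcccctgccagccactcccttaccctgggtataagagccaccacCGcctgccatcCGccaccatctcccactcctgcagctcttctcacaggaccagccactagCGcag

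The TIMP3 window held 31 CG dinucleotides, UCHL1 25, SFRP2 15, MGMT 45, NEURL1 34 and LGALS4 7. By the ratio of observed to expected CG (at least 0.75, with at least 55% G and C), TIMP3, UCHL1, MGMT and NEURL1 are CpG-rich, SFRP2 is intermediate and LGALS4 is CpG-poor, under 0.48. A CpG-rich promoter was thus found among undetected and among detected genes.

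The most intense signals of DLD1 cells came from the translation machinery. Of the 25 named genes with the brightest probes, 16 encode ribosomal proteins. Over the array, 78 of 80 measured ribosomal protein genes were detected, 77 were abundant and 73 were within the brightest 1% of probes. RPS2, a protein of the small subunit, was the brightest named gene at 190870 and 171096. Others were RPL13, RPL41, RPL6, RPS18, RPS21, RPS26, RPLP0, RPL7A, RPS6, RPLP1, RPS27, RPL23, RPS13 and RPL23A. EEF1A1, the factor that brings aminoacyl-tRNA to the ribosome, gave 153201 and 151268. RN7SL1, the RNA of the signal recognition particle, RNA28SN5, a ribosomal RNA, and RNU4ATAC, a small RNA of the minor spliceosome, were also among the 25. The other probe of RNU4ATAC gave 3.91 and 8.95 and was not well above background. KRT19, a keratin of simple epithelia, and 4 genes whose probes hold letters of a repeat, described last, made up the rest. The signals of RPS21, RPS26, RPS6, RPS27 and RPL23 came from their brightest probes, while the dimmest probe of each gave between 62.9 and 165. Among the genes just below the 25, chosen after their values were seen, MIF, a cytokine, gave 99566 and 100847, S100P, a calcium-binding protein of many carcinomas, gave 93087 and 95587, and GSTP1, a detoxifying glutathione transferase, gave 84584 and 88703.

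Lineage genes went with the label of a colon epithelial line. All 9 defining markers of colon epithelium were detected, while of 22 defining markers of blood, fibroblast, endothelium, hepatocyte, neuron and glia, muscle and squamous epithelium 2 were. These markers are parts of wider lists, chosen with earlier results of these data known. They leave out FABP1 and CEACAM5, and the bright blood, neural and squamous genes, all described below. Of the wider list of colon epithelial identity genes 31 of 32 were detected, 13 of them abundant. Of 102 measured genes of the other lineages 17 were detected (16.7%). KRT19, probed at chr17:39679918-39679977 of hg19, gave 128168 and 131668, and 0.0198% of probes were brighter. The other keratins of simple epithelia were KRT18 at 86204 and 86128 and KRT8 at 12591 and 13533. EPCAM, an adhesion protein of epithelia, gave 22292 and 23404, the tight junction gene CLDN4 gave 36539 and 36691, and E-cadherin (CDH1), which joins neighbouring epithelial cells, gave 5680.4 and 6082. All of these were abundant by their brightest probe. The other probe of CLDN4 gave 3.65 and 5.73 and was not well above background.

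The intestine-specific members of this list ranged widely. CDX2, the transcription factor that specifies intestinal epithelium, was abundant at 8444 and 8917. VIL1, a bundler of microvillar actin, was moderate at 835 and 868, as were the lectin LGALS4 at 501 and 594 and the cadherin CDH17 at 474 and 496. CEACAM5, the carcinoembryonic antigen, was low at 57.1 and 53.1. FABP1, the fatty acid carrier of enterocytes, was the 1 member not well above background, at 6.28 and 5.93.

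Genes of mature crypt cells other than goblet cells were largely undetected. Of 24 absorptive colonocyte genes 8 were detected and none was abundant. CA2, a carbonic anhydrase, was moderate at 233 and 243, and the peptidase DPP4 was the brightest at 720.2 and 690.1, followed by the transcription factor KLF4 at 437 and 482 and the adhesion protein CEACAM1 at 436 and 443. The chloride exchanger SLC26A3 gave 3.29 and 3.23, the carbonic anhydrase CA1 3.29 and 5.87, the water channel AQP8 7.45 and 7.09, the hormone precursor GUCA2A 14.4 and 14.3 and sucrase-isomaltase (SI) 5.13 and 2.88, none of them well above background. Among 18 goblet cell genes 12 were detected (66.7%), close to the 60.7% of all named genes. Of the 18, 4 were abundant (22.2%, against 9.09% of all named genes), and the 6 undetected ones lay between 3.02 and 21.9. TFF3, a peptide that protects mucus-covered surfaces, gave 29949 and 31454, AGR2, a folding enzyme of mucins, gave 19606 and 20021, and TFF1 gave 10705 and 11003. The gel-forming mucin MUC2 was low, at 31.7 and 36.5 for the brightest of its 4 probes, of which 2 were detected. ATOH1, the transcription factor that commits cells to the secretory lineage, was at the floor at 3.66 and 3.704.

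Among 16 enteroendocrine genes 1 was detected. It was NEUROG3, the transcription factor of endocrine progenitors, with 191 and 175, while the granule protein CHGA gave 2.81 and 2.799 and the hormone glucagon (GCG) gave 3.804 and 12.2. Of 7 Paneth cell genes the trypsinogen PRSS2 was abundant at 3464 and 3539.8 and the phospholipase PLA2G2A low at 69.4 and 63.8, and the defensin DEFA5 gave 2.92 and 2.92. Of 10 tuft cell genes TRPM5, a cation channel of taste signalling, was detected at 34.2 and 22.4. Their master regulator POU2F3 gave 3.53 and 5.25. Trypsinogen genes are near-identical copies, so the PRSS2 signal may include its relatives. The lists for Paneth and blood cells each lacked 1 gene that was not measured here under its name.

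Genes of other tissues were at or near background as groups. Detected members numbered 2 of 22 for fibroblast and mesenchymal cells, 1 of 11 for endothelium, 1 of 14 for hepatocytes, 3 of 15 for neuron and glia, 2 of 11 for muscle, 2 of 12 for squamous epithelium and 6 of 17 for blood cells. Collagen I (COL1A1) gave 2.95 and 2.91, the intermediate filament vimentin (VIM) 12.5 and 8.87 and the mesenchymal repressor ZEB1 6.59 and 12.3, none well above background. SNAI1, another repressor of E-cadherin, was low at 42.00 and 48.3, and smooth muscle actin (ACTA2) at 36.2 and 46.7. ESAM was the detected endothelial gene, at 28.7 and 27.8, APOA1 the detected hepatocyte gene, at 15.8 and 20.1, and for muscle these were DES at 146 and 181 and ACTA1 at 17.03 and 17.9. The leukocyte antigen PTPRC gave 14.5 and 14.4, the globin HBB 3.44 and 4.98 and albumin (ALB) 3.44 and 3.47.

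Some members of these lists were bright. CD4 gave 1644 and 1552 and CD79A, a chain of the B cell receptor, 1143 and 1162, both moderate. The detected neural genes were the myelin gene MBP at 651 and 654, the splicing factor RBFOX3 at 303 and 333 and the microtubule protein MAP2 at 187 and 198. Each of CD4, MBP, RBFOX3 and MAP2 had at least 1 other probe that was not well above background. The squamous gene SFN, a 14-3-3 protein also made by other epithelia, was abundant at 24436 and 25061, as was the keratin KRT10 at 3831 and 4120.2, while KRT5, KRT14 and TP63 gave 3.63 to 11.6. In a bulk sample a few cells of another type and a little RNA in every cell cannot be told apart.

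Wnt genes divided by role. Of 118 measured members of the 5 lists, 76 were detected (64.4%), close to the 60.7% of all named genes. Those that carry the signal inside the cell and its targets were mostly detected, with 19 of 22 receptors and signal transducers, 22 of 23 genes of the destruction complex and the TCF factors, and 26 of 32 target and stem cell genes. Ligands and antagonists mostly were not, with 5 of 23 ligands and 4 of 18 antagonists detected.

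Among the ligands WNT3, a ligand of the crypt base, was moderate at 193 and 203. WNT5B was low at 70.95 and 78.1, and WNT10B at 38.4 and 39.3, and WNT10A at 37.3 and 35.5. The ligands WNT5A, at 3.33 and 3.78, and WNT6, at 5.69 and 3.02, were not well above background. The Wnt amplifier RSPO3, at 16.6 and 12.3, was well above background on replicate 1 alone. The 18 undetected ligand genes lay between 2.77 and 16.6. WNT3A, the fifth detected ligand, had a second probe that was not well above background.

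Among receptors LRP6, the coreceptor, was moderate at 1495 and 1613, and so were the Wnt receptor FZD7 at 396 and 409.5 and LGR4, which binds R-spondins, at 368 and 390.4. The 3 brightest were DVL1, which relays the signal from the receptor, at 14000 and 14811, RYK at 2023 and 2066 and LRP6. FZD8, ROR2 and FZD10 were the 3 undetected receptors, between 2.99 and 7.55. Inside the cell β-catenin (CTNNB1) gave 1768 and 1883 and its kinase GSK3B gave 1057 and 1128. The brightest of the complex were the casein kinase CSNK1E at 15794 and 16432 and GSK3A at 5579 and 5983. APC, the scaffold of the complex, gave 120.4 and 118 with 1 probe, while its other probe gave 6.54 and 5.03.

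The nuclear partners of β-catenin had unlike signals. TCF7L2, the main TCF factor of the colon, gave 726 and 855 and LEF1, which marks Wnt-activated tumours, 1019 and 1146, both moderate. TCF7 was low at 90.2 and 93.9, and TCF7L1, a repressor of the family, was the 1 undetected member at 12.9 and 11.3.

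The negative feedback genes that β-catenin induces had unlike signals. The ubiquitin ligases that remove Wnt receptors were abundant, RNF43 at 12434 and 12720 and ZNRF3 at 2924 and 3097. The other probe of ZNRF3 was low at 70.6 and 76.4. AXIN2, a scaffold of the destruction complex, was moderate at 1255 and 1349. Of the other targets, ASCL2, the transcription factor of crypt stem cells, was abundant at 6268 and 6569 and MYC, which drives growth, was abundant at 3680.4 and 3941 for 1 of its 2 probes, the other being at 2.83 and 2.81. With RNF43 and ASCL2 the 3 brightest of the list included BIRC5, an inhibitor of apoptosis also listed under mitosis, at 7372 and 7743. CCND1 gave 1018 and 1109.6, EPHB2, a receptor that sorts cells along the crypt, 841 and 901, SP5 769 and 861 and SOX9 371 and 379, all moderate.

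The stem cell marker LGR5, a receptor for R-spondins, was low at 30.5 and 22.8, as was the Wnt inhibitor NKD1 at 23.3 and 25.4. NOTUM, an enzyme that inactivates Wnt ligands, was at 3.22 and 3.18 and not well above background. The 6 undetected genes of this list lay between 2.79 and 7.27.

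Of the antagonists, NKD2 at 1406 and 1459, which acts inside the cell, and KREMEN2 at 1182 and 1227 and KREMEN1 at 938 and 1011, membrane receptors of DKK proteins, were the 3 moderate members. The secreted decoys SFRP1, SFRP2, SFRP4, SFRP5 and WIF1 gave signals between 3.06 and 3.64, DKK1 gave 7.16 and 3.45 and DKK3 5.78 and 2.95. FRZB, the relative of this family once named SFRP3, was low at 38.1 and 46.9 and the 1 secreted decoy detected.

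**Figure D2:**
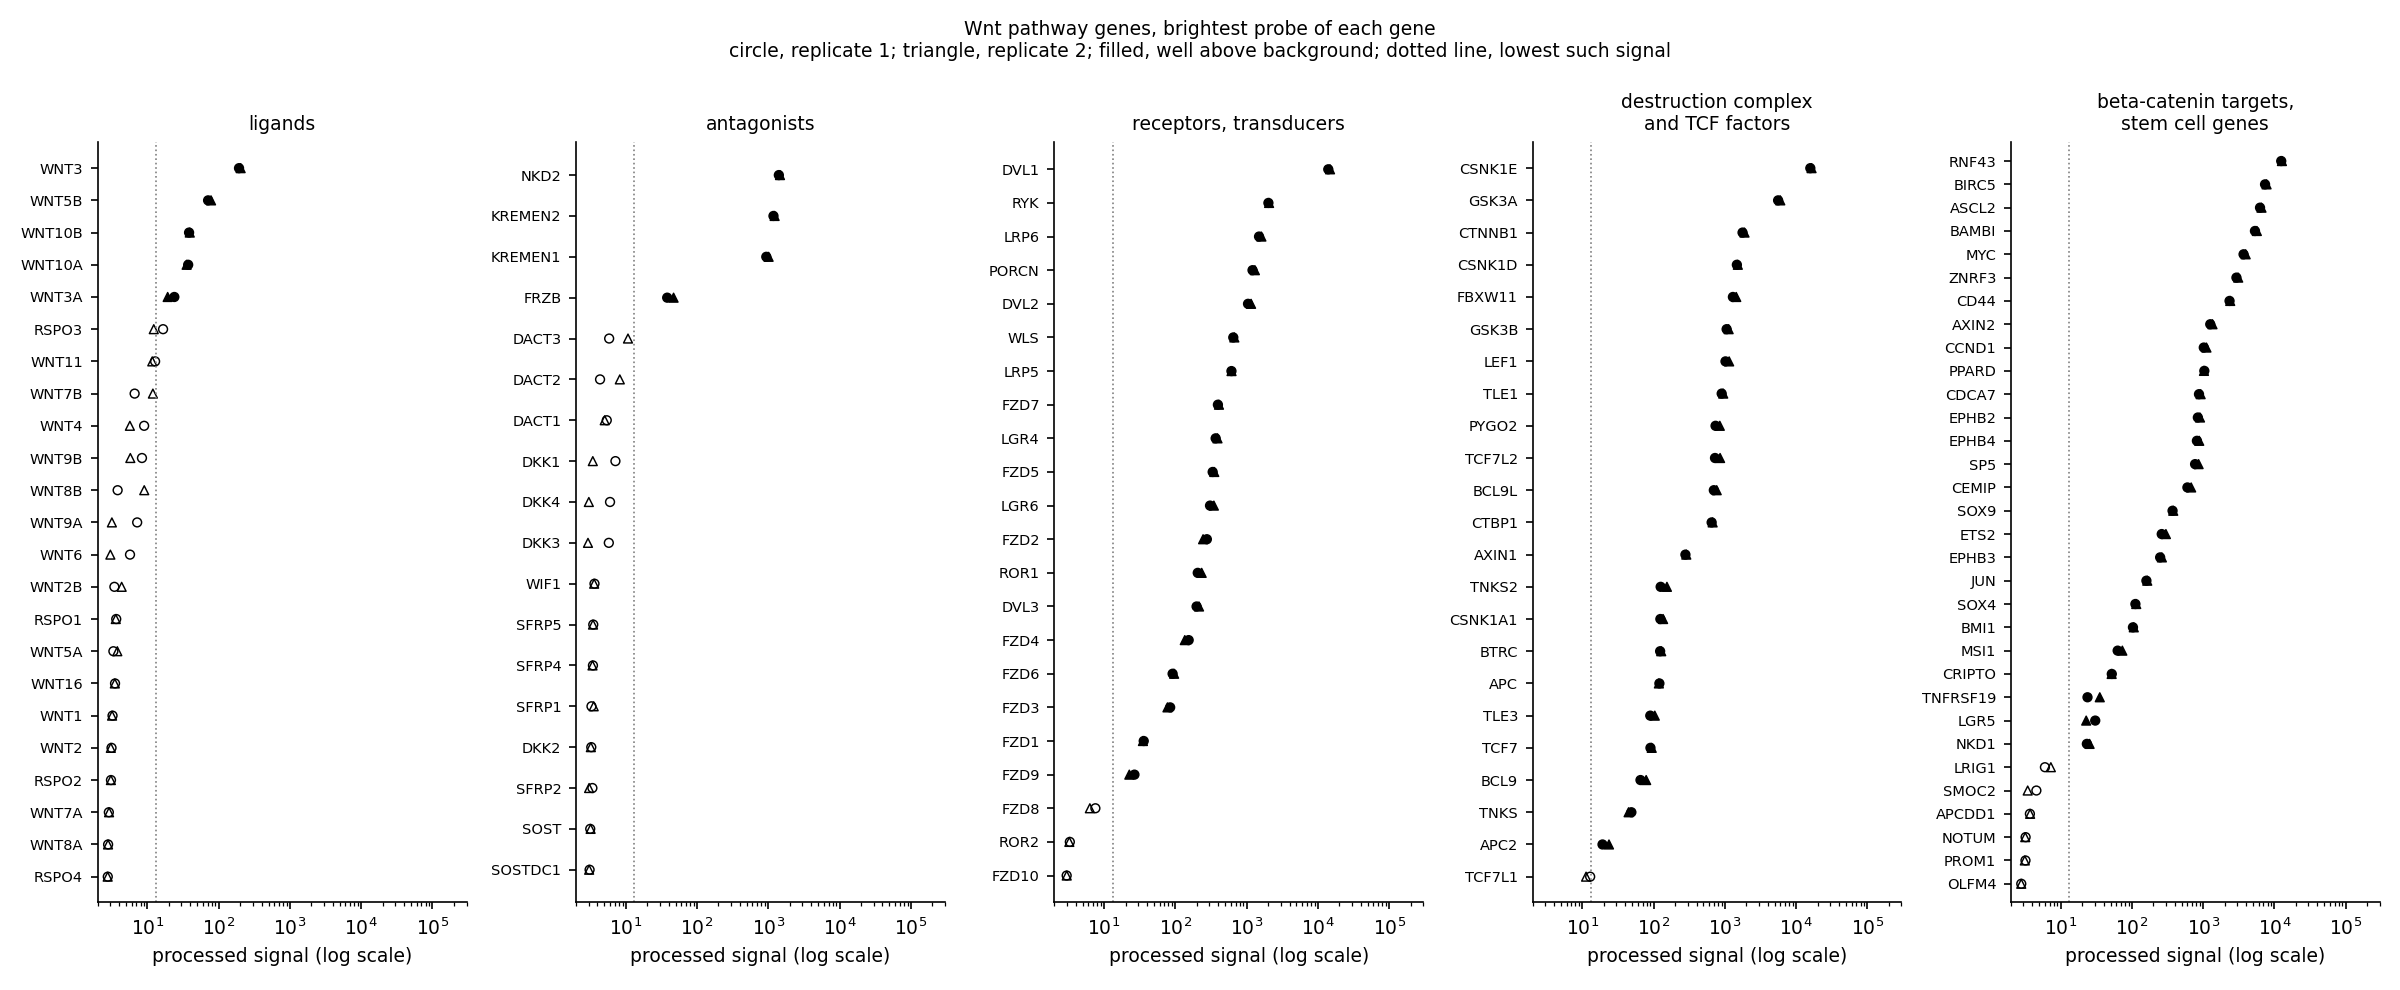
Processed signal of the brightest probe of each Wnt pathway gene on a log axis, in 5 panels by role, with a circle for replicate 1 and a triangle for replicate 2, filled where well above background. Ligands reach 203 and antagonists 1459, while targets reach 12720 and most receptors, complex members and targets lie to the right of the lowest signal marked well above background.

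Genes of the cell cycle were detected almost without exception. Of 104 measured, 101 were detected and 23 were abundant. All 38 mitosis genes were at least moderate, between 184 and 16038, and all 37 DNA replication genes were detected, with 4 low. Cyclin B1 (CCNB1), which drives entry into mitosis, gave 4650.3 and 4854, its kinase CDK1 gave 2499.5 and 2738 and the APC/C activator CDC20 gave 1756 and 1807. The proliferation antigen MKI67 gave 853 and 876, topoisomerase TOP2A 847 and 899, the kinases AURKA 1564 and 1709 and PLK1 525 and 521, cyclin A2 (CCNA2) 1115 and 1214 and FOXM1, the transcription factor of G2 genes, 1337 and 1436. The 3 brightest were PTTG1, which guards sister chromatids, at 14983 and 16038, and the CDK subunits CKS2 at 14255 and 14996 and CKS1B at 12994 and 14286.

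Replication genes were led by TK1, which makes thymidylate from thymidine, at 34355 and 35009, the helicase subunit MCM7 at 20112 and 21214 and thymidylate synthase (TYMS) at 7735 and 7808. The sliding clamp PCNA gave 4041 and 4195 and MCM2 gave 1873 and 1972. RRM2, a subunit of ribonucleotide reductase, gave 456 and 504 with 1 of 3 probes. The genes of the G1 decision were of moderate or low signal, 2 of 29 being abundant, MYC and the CDK inhibitor CDKN1C at 3599.9 and 3714. CDKN2D, another such inhibitor, gave 2222 and 2392, CDK4 2218 and 2381, RB1 1259.7 and 1376, cyclin E1 (CCNE1) 1001 and 1014 and E2F1 232 and 252. The p21 gene CDKN1A, another CDK inhibitor, at 17.3 and 24.5, was well above background on replicate 2 alone. The inhibitor CDKN2B at 3.35 and 8.0 and cyclin D2 (CCND2) at 3.47 and 3.47 were not well above background.

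Promoters of the dividing cell shared short motifs that were counted in the same 300-base windows, on both strands. The letters TTTGAA, the core of the cell cycle homology region, were in 21 of 32 mitosis promoters (65.6%) and in 11.96% of all 14871 windows. CCAAT was in 24 of these 32 (75%) and in 36.4% of all. Either of TTTCCCGC and TTTGGCGC, forms of the E2F site, was in 15 of 31 replication promoters (48.4%), in 3 of 32 mitosis promoters and in 3.09% of all. TTTGAA was in 1 replication promoter. A match is a description of the letters. An example of each is shown from the key genes. CDK1 at chr10:60778081-60778380 (plus strand) and TOP2A at chr17:40417847-40418146 (minus strand) have CCAAT and TTTGAA in capitals, and PCNA at chr20:5126573-5126872 (minus strand) and TYMS at chr18:657403-657702 (plus strand) the E2F letters.
CDK1: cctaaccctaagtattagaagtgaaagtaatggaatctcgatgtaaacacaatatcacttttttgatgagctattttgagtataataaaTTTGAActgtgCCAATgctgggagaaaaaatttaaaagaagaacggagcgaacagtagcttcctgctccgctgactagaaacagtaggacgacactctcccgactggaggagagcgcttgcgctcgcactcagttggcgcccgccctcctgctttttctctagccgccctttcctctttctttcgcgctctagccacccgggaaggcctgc
TOP2A: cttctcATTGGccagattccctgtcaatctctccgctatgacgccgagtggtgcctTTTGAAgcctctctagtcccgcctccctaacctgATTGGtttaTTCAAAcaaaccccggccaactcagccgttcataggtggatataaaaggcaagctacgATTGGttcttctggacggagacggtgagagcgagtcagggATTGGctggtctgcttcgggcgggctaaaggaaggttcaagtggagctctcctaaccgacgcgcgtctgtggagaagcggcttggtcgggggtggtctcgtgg
PCNA: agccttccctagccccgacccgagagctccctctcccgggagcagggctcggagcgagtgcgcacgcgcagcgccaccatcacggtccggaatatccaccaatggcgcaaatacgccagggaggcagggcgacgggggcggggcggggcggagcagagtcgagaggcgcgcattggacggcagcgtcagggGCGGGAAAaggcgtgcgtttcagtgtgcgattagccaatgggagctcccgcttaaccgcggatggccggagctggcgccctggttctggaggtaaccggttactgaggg
TYMS: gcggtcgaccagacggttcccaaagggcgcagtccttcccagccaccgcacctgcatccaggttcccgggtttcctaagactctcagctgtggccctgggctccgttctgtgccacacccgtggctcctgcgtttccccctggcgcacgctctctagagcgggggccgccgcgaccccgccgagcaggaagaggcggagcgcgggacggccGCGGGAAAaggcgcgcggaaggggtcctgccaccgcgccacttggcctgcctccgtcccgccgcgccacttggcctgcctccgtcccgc

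Metabolic genes were detected and often abundant. Of 143 measured, 131 were detected and 70 were abundant. All 30 genes of the respiratory chain and ATP synthase were at least moderate and 26 were abundant, and 15 of 28 glycolysis genes were abundant. Both routes of energy supply thus had bright genes in the same bulk sample, and the use of either route was not measured. In glycolysis GAPDH gave 73523 and 75722, the lactate dehydrogenase subunits LDHB 55549 and 56443 and LDHA 48889 and 49046, aldolase ALDOA 32894 and 33409, enolase ENO1 21846 and 23259 and pyruvate kinase PKM 18684 and 18944. The glucose carrier SLC2A1, at 5685 and 6055, and hexokinase HK2, at 4568 and 4688, were abundant with 1 of their 2 probes, the other probe of each not being well above background on both arrays. The liver isozyme PKLR at 7.95 and 6.52 and the neuronal glucose carrier SLC2A3 at 3.62 and 3.57 were among the 3 not detected.

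In the respiratory chain the brightest were ATP5PO, a stalk subunit of ATP synthase, at 31887 and 34021, COX7A2 at 29120 and 30997 and COXFA4, once named NDUFA4, at 26406 and 28238, both of cytochrome oxidase. ATP5F1A, COX4I1, NDUFV1, SDHA and UQCRC1, from the 5 complexes, gave between 4892 and 24392. Of the 27 sterol and fatty acid genes all were detected. SREBF1, a regulator of lipid synthesis, gave 19736 and 20354, farnesyl diphosphate synthase FDPS 13884 and 14845, the LDL receptor 9442 and 9625, fatty acid synthase FASN 8149 and 8066 and INSIG1, a sensor of sterols, 4487 and 4764. In sterol synthesis HMGCS1 at 2366 and 2469 and SQLE at 1901 and 1914 were moderate, and so was SCD, a desaturase of fatty acids, at 964 and 979.

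Serine, one-carbon, glutamine and nucleotide genes were detected in 23 of 24 cases, none of them low. ASNS, which makes asparagine, gave 11593 and 11885, ODC1, the first enzyme of polyamine synthesis, 9706 and 10050, and PAICS of purine synthesis 6733 and 7082. Of the serine pathway PHGDH gave 5049.6 and 5124, PSAT1 5801 and 6035, SHMT2 5388 and 5682 and MTHFD2 3289 and 3505, all abundant. The amino acid carriers SLC7A5 at 1167 and 1229 and SLC1A5 at 557 and 573 were moderate. ALDH1L1, a folate enzyme, was the 1 undetected member at 2.903 and 2.89.

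Genes that set the mature colonocyte's use of fatty acids and butyrate had unlike signals. Of 21, 19 were detected, led by ACADVL at 17580 and 18591, ETFB at 16934 and 18426 and ECHS1 at 8472 and 9088, enzymes of β-oxidation. CPT1A, which admits fatty acids to mitochondria, was moderate at 700.5 and 732, as was the nuclear receptor PPARG at 1550.3 and 1661. ACADS, the short-chain enzyme, was low at 73.3 and 72.6. The 2 undetected genes were the coactivator PPARGC1A at 3.400 and 3.29 and SLC5A8, which carries butyrate into the cell, at 2.800 and 2.78. Of 13 liver-type genes 7 were detected (53.8%, against 60.7% of all named genes). FBP1 of gluconeogenesis was moderate at 233 and 235 and PCK1 low at 22.6 and 23.7, and of the argininosuccinate enzymes ASS1 gave 3969 and 3859 and ASL 1045 and 1079. G6PC1, which releases glucose, was at the floor at 2.67 and 2.68. CPS1, the first enzyme of the urea cycle, was well above background on replicate 1 alone, at 45.5, and gave 3.72 on replicate 2.

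**Figure D3:**
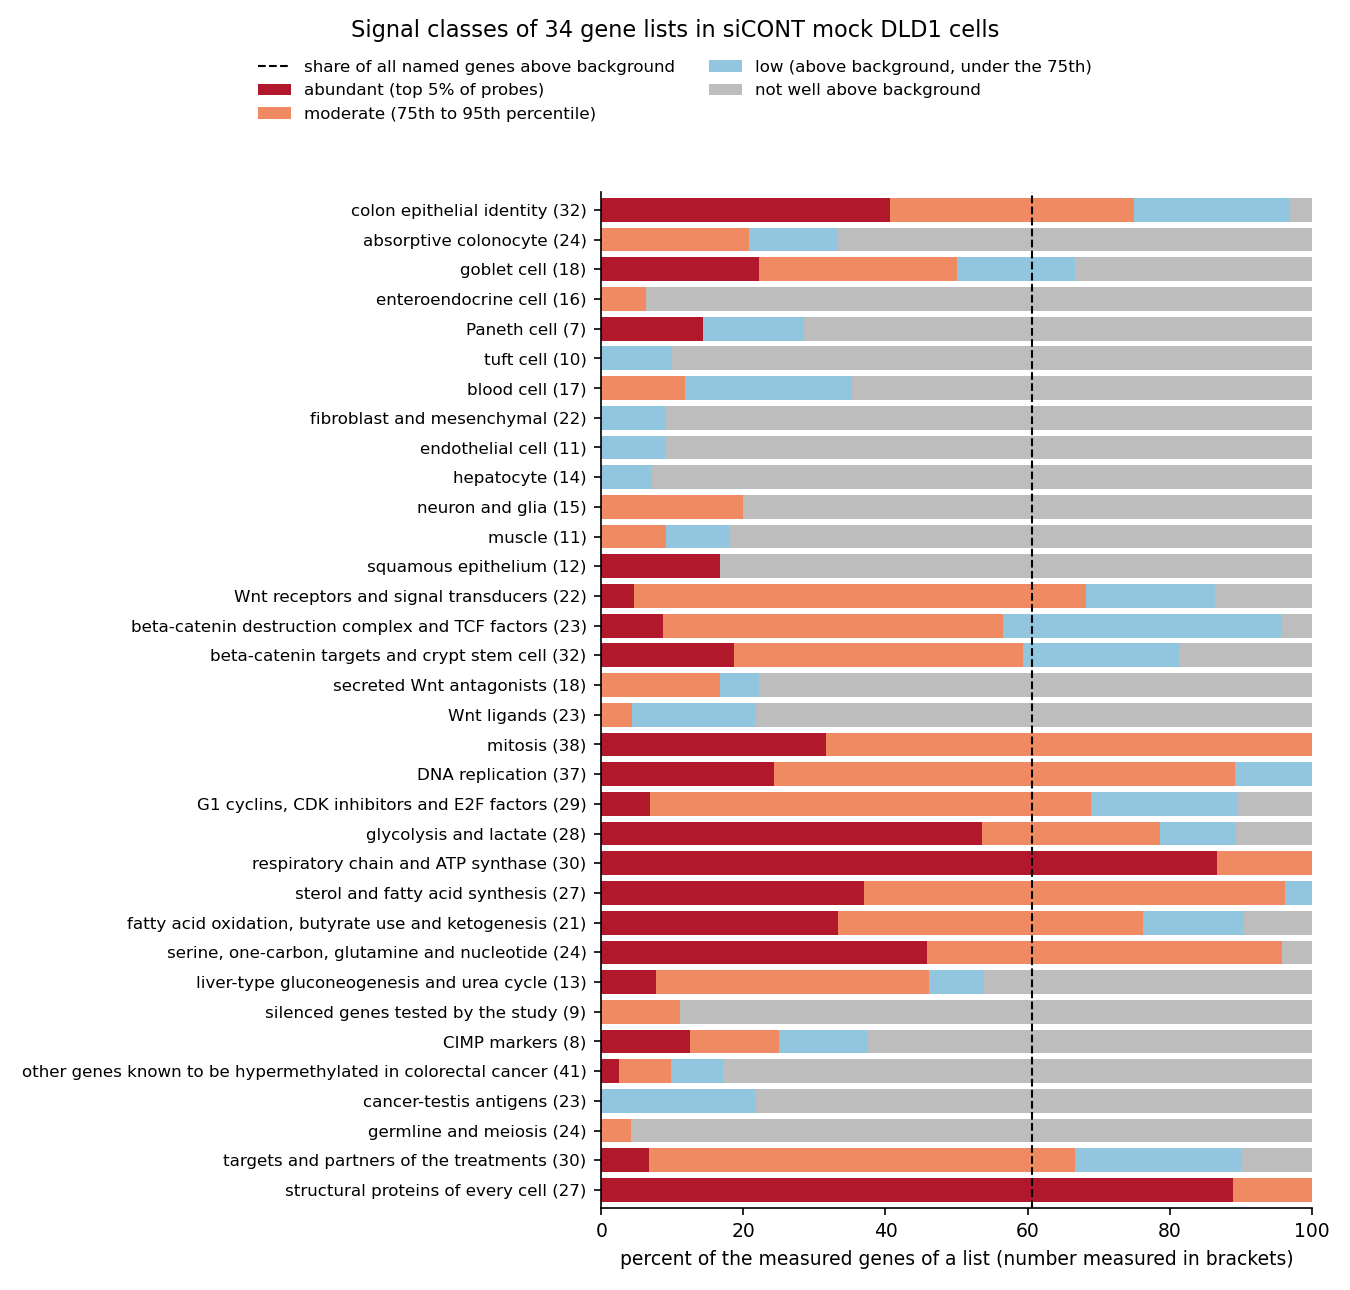
Share of the measured genes of each of the 34 lists in each signal class, with the number of genes in brackets and a dashed line at the 60.7% of all named genes that were detected. Respiratory chain and structural genes are mostly abundant, proliferation genes moderate or abundant, and genes of other lineages, Wnt ligands and antagonists, silenced genes and mature crypt cells other than goblet cells mostly not well above background.

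Genes known to be silenced in tumours or in adult tissues were mostly undetected, with several bright exceptions. Of the 9 silenced genes that the study followed, 8 were not well above background. They were the gut transcription factors GATA4 at 6.53 and 13.99 and GATA5 at 3.54 and 3.53, TIMP3 at 3.12 and 3.48, UCHL1 at 2.65 and 2.66, SFRP1 at 3.301 and 3.55, SFRP2 at 3.402 and 3.06, SFRP5 at 3.498 and 3.47 and DKK1 at the values above. NEURL1 was moderate at 400.1 and 299.8. The study followed these genes as ones silenced by promoter methylation in cancer cells, so their count is not independent of that choice.

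Of 8 CIMP markers 3 were detected, 1 of them abundant, 1 moderate and 1 low. The moderate marker IGF2, a growth factor, gave 173 and 188, and the low marker CDKN2A, which encodes p16, gave 137 and 127, each with 1 of 2 probes. CACNA1G at 7.66 and 4.73, NEUROG1 at 8.22 and 3.08, RUNX3 at 2.93 and 4.74, SOCS1 at 12.6 and 12.8 and CRABP1 at 8.696 and 19.2 were not well above background on both arrays. Of 41 other genes known to be hypermethylated in colorectal cancer 7 were detected (17.1%). SEPTIN9, a septin whose methylated DNA serves as a blood test for this cancer, was abundant at 30910 and 32434. Its other probe was also detected, at 141 and 133. MGMT was moderate at 1092 and 1122 and RASSF1 at 1232 and 1355, and NDRG4 was low at 73.8 and 72.4. VIM, HIC1, RASSF2, TFPI2 and BMP3 gave between 2.83 and 13.1. For the detected genes, the arrays do not show from which promoter of a gene the RNA came, nor the methylation of any promoter.

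Germline genes are silenced in most adult tissues. Of 24 germline and meiosis genes 1 was detected, the cohesin gene STAG3 at 677 and 707 with 2 of 3 probes, and DAZL, DDX4, MAEL, SYCP1 and SYCP3 gave between 2.93 and 11.9. Of 23 measured cancer-testis antigens 5 were detected, all low, among them PRAME at 27.5 and 21.6 with 1 of 3 probes. CT45A1 was the brightest at 52.1 and 52.98, followed by PAGE2 at 28.5 and 26.7 and SSX2 at 29.6 and 20.2. MAGEA1 gave 3.51 and 4.34 and GAGE1 3.66 and 4.51. These antigens form families of near-identical genes, so their signals may be shared.

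Of 30 genes for the targets of the study's treatments and their partners, 27 were detected at the baseline. UHRF1, which guides maintenance methylation to replicated DNA and is the target of the siRNAs, was moderate at 541 and 575, and 13.9% of probes were brighter. Its other probe gave 97.6 and 102 and was low. Its partner, the maintenance methyltransferase DNMT1, gave 907 and 971. Of the de novo methyltransferases DNMT3A gave 339 and 358 and DNMT3B 87.9 and 103 with 1 of 2 probes, and DNMT3L, their germline cofactor, 3.399 and 3.92. Histone deacetylases, the targets of TSA, were led by HDAC1 at 4905 and 5263, HDAC3 at 2738 and 2793 and HDAC2 at 2704 and 2825, and HDAC6 gave 677 and 710.1. MBD2, a reader of methylated DNA, was the brightest of the list at 4927 and 5303. The histone methyltransferases EZH2 at 775 and 819, EHMT2 at 529 and 579.8 and SETDB1 at 1916 and 2015 were moderate. HDAC9 at 3.48 and 3.37 and TET3, which oxidises methylated cytosine, at 7.64 and 4.45 completed the undetected members with DNMT3L.

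Among structural proteins of every cell all 27 were detected and 24 abundant. Beside EEF1A1 they included the ribosomal RPLP0 at 115028 and 116856, actin ACTB at 74901 and 75347 and the cyclophilin PPIA at 67860 and 68255. B2M, the light chain of HLA class I, was moderate at 1676 and 1780.2, and so were TBP, a general transcription factor, at 172 and 176 and HPRT1 of purine salvage at 2432 and 2514, the 3 that were not abundant.

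Detection went with the CpG content of the promoter. Of 18542 protein-coding genes measured, 14871 had a promoter window in the table used. Of 7458 with a CpG-rich window 82.2% were detected (95% exact binomial interval over genes 81.3 to 83.1), of 3429 intermediate ones 68.7%, and of 3984 CpG-poor ones 32.2% (30.8 to 33.7). The intervals cover counting error over genes, which are not independent replicates. From the fewest to the most CG dinucleotides the share rose from 21.5% (0 to 2) through 49.8% (9 to 11) to 79.7% (20 to 24), and it was 81.1% at 30 or more. Across all these genes CG count and level had a Spearman rho of 0.38, where the points share both arrays and differ in probe. This rho includes the 5099 undetected genes, and signals at the floor have no order. Probe base composition also went with detection, 39.4% of probes with 45 to 50% G and C being detected against 50.6% with 55% or more. Within genes of 1 probe under 50% G and C, 80.0% of CpG-rich and 22.7% of CpG-poor genes were detected, and within those of 50% or more 82.5% and 35.8%. Among genes with 2 or more probes, any of which could count, these shares were 85.1% and 48.5%.

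**Figure D4:**
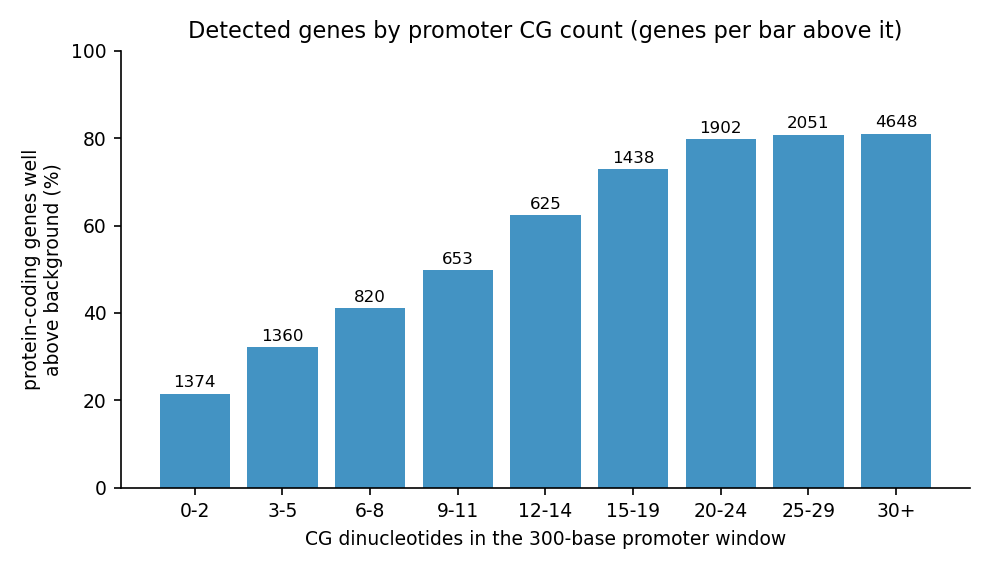
Percent of protein-coding genes that were well above background, by the number of CG dinucleotides in the 300-base promoter window, with the number of genes above each bar. The bars climb from 21.5% at 0 to 2 to 79.7% at 20 to 24 and stay near that height.

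Several lists departed from this relation. Of 18 colon epithelial identity genes with a window, 14 were CpG-poor and 13 of these 14 were detected. Of 19 germline and meiosis genes 13 were CpG-rich and none of the 13 was detected. Of 32 genes known to be hypermethylated 19 were CpG-rich and 6 of the 19 were detected, and of 11 CpG-rich Wnt ligand genes 2 were. Mitosis and replication genes followed the relation, all of 22 CpG-rich mitosis genes and all of 28 CpG-rich replication genes being detected. These are counts beside the share of all genes, and the lists were not drawn at random.

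Among kinds of transcript, 61.8% of 25212 probes for RefSeq mRNAs were detected, 37.6% of 3962 for RefSeq noncoding RNAs and 8.91% of 6152 for a catalogue of intergenic long noncoding RNAs. Among chromosomes the share of detected protein-coding genes ran from 50.1% on the X chromosome and 55.8% on chromosome 11 to 73.2% on chromosome 16, so it varied less between chromosomes than between promoter classes.

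The last group among the brightest genes was set apart by its probe letters. Of the 25 brightest named genes, SLC66A1, ZNF865, FUT6 and GPR155 had a probe with a stretch of letters found in the Alu repeat, which is scattered through the genome in very many copies. The stretches searched, on both strands, were GGCTGAGGC, CCAGCCTGG and TAATCCCAG.

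The FUT6 probe gave 112328 and 111998, while the other probe of FUT6, a fucosyltransferase gene, gave 3.50 and 3.38. For ZNF865 these were 112747 and 111658 against at most 127 and 123 for its 2 other probes, and for GPR155 104491 and 99404 against at most 52.1 and 49.6. SLC66A1 had no other probe. Such stretches were in 157 of all probes (0.31%) and in 17 of the brightest 506 (3.36%). Of 52 genes with probes of both kinds, the probe with the stretch was the brighter in 34, by a median of 1.81 log2 units over the 52. None of the genes of the 34 lists was placed by such a probe. What these probes bound was not tested.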

How the data were processed

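Total RNA (100 ng) of each sample was labelled with Cy3 and hybridised to a 1-colour Agilent human expression array. The deposited files hold each spot's intensity as gProcessedSignal, which the authors' scanner software, Agilent Feature Extraction 10.7 per the submitters' processing notes, had corrected for background, with its flags. No normalization between arrays is stated in the sources used here. The deposited value table matched this intensity and was otherwise used only as an alternative source of levels.

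Control spots and spots flagged as outliers were left out and the spots of a probe were averaged, which left 50590 of 50599 probes, 9 lacking a value on an array. Percentiles were taken over the mean log2 signal of both arrays after subtraction of each array's 75th percentile. A gene took its brightest probe, and gene symbols were updated through RefSeq tables. Probe positions are those of hg19 in the files, and promoter windows are RefSeq GRCh38.p14. Microarrays give no read depth, and their number limits the precision. No test between groups was made, and the other 6 arrays were not used.

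The 34 gene lists, with 742 entries for 724 genes, 6 of which were not measured under their names, were chosen with earlier results of these data known. The genes named are the key genes of the lists, the 25 brightest named genes, the 3 brightest of each list, and all detected or all undetected members where these were at most 3. Some genes that this rule names, and the probe sequences with repeat letters, are not reported here. WNT3A, FRZB and HPRT1 were named after their values were seen, to complete a count.

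The scripts were tested on simulated data and used Python 3.11.15, numpy 2.4.6, pandas 2.3.3, scipy 1.17.1 and matplotlib 3.10.9, with R 4.3.3 and limma 3.58.1 for the alternatives. These were other rules for detection, for the probe of a gene, for background (normexp, offset 50) and for scaling (quantile), and each array alone. Levels from the deposited value table were another.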

Additional observations from a re-analysis of the deposited data

How the results depend on the processing

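Counts of probes, genes, listed genes and abundant key genes kept within 1.5 times of the values given under every alternative run, at 21050 to 28351 probes, 11123 to 15401 named genes, 405 to 524 listed genes and 36 to 48 abundant key genes. The SD between arrays was 0.1796 with quantile normalization and 0.0894 with normexp. The share of CpG-rich genes detected, 82.2%, was 83.7% with 1 array sufficient, 88.3% with a signal significant over background, 88.8% above the 95th percentile of negative controls, 73.2% where all probes of a gene had to be detected and 75.7% with the median probe. For CpG-poor genes these shares were 35.9%, 48.4%, 49.4%, 25% and 26.3% against 32.2%, and leaving out either array gave 34.1114% and 34.0612%. Removing the probes with Alu letters, an alternative chosen after seeing the data as were those for the promoter shares, gave 32.1% for the CpG-poor.

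The negative-control threshold moved many lists of few detected genes by over 1.5 times. Other hypermethylated genes went from 7 to 16 detected, Wnt ligands from 5 to 11 and Wnt antagonists, not all of them secreted, from 4 to 7. Absorptive colonocyte genes went from 8 to 14, blood genes from 6 to 10, and fibroblast and muscle genes each from 2 to 7. Squamous genes went from 2 to 4, the study's silenced genes from 1 to 2, CIMP markers from 3 to 6 and cancer-testis antigens from 5 to 8. Germline and enteroendocrine genes each went from 1 to 6, endothelial genes from 1 to 4 and hepatocyte genes from 1 to 5. Neuron and glia genes went from 3 to 5 and tuft genes from 1 to 2. With a signal significant over background, tuft genes reached 4 and Wnt ligands 12. Where all probes of a gene had to be detected, CIMP markers and cancer-testis antigens fell to 1, blood genes to 3, and neural, hepatocyte and germline genes to 0. The negative-control threshold was 3.67 on replicate 1 and 3.68 on replicate 2, under the lowest signals marked well above background. It could therefore only add genes, and the rule over all probes could only remove them. With the median probe 24 of 188 key genes changed class, UHRF1, KRT8, CDK1 and MCM7 among them. Without replicate 2, CPS1 and RSPO3 became detected, and without replicate 1, CDKN1A, CRABP1 and SNAP25 did. No paired analysis was possible because 1 group alone was described.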
